A study of Mus musculus with 20 samples.

Results

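The data described here are 8 of the 20 RNA-seq libraries of a series on inflammatory fibroblasts and therapy resistance in rectal cancer. They compare mouse colon fibroblasts kept in medium of the irradiated APTKA arm with fibroblasts kept in plain APTKA medium. Libraries were chosen by their labels, 4 of the irradiated arm and 4 of the plain arm, and all 14820 genes that passed a filter on low counts were compared. All fibroblasts came from C57BL6/J mice and were grown in flat culture in Advanced DMEM F12 with 10% serum. In both arms they were kept for 24 h with medium conditioned by APTKA organoids. The irradiated arm carries the label of 5 fractions of 2 Gy, and the plain arm had no radiation. The label attaches the dose to the APTKA medium and does not say when, or in which cells, it was given. The names APTKA and APTK, which the labels attach to the organoid medium, are not expanded there. An irradiated APTK group and a plain APTK group, of 4 libraries each, the first with the same dose label and both with 24 h of APTK medium, were used to test whether the effect differed between media. A group of 4 untreated libraries, labelled wild-type fibroblasts and without conditioned medium or radiation, gives a level for orientation. No group had radiation without organoid medium, and none had medium that no organoid had conditioned. The labels do not say whether the 4 libraries of a group are separate cultures, so the spread behind each p-value may be technical.

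Fibroblasts of the gut wall build the collagen matrix, supply growth factors to the epithelium and respond to cytokines, metabolites and oxidants released by neighbouring cells. Oxidants and electrophiles free the transcription factor NRF2 (gene Nfe2l2) from its inhibitor Keap1, after which it binds antioxidant response elements and switches on glutathione, quinone reductase and NADPH genes. Entry into S phase depends on E2F factors, which drive the genes of the replication machinery, while p53 target genes such as Cdkn1a and Mdm2 rise after DNA damage in the cell itself.

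The libraries held 25.3 to 31.6 M counts in the irradiated arm and 21.4 to 28.7 M in the plain arm. Mitochondrially encoded genes, of which 6 of 13 in the list had 0 counts in the 8 libraries, took 0.442 to 0.586% of counts in the irradiated arm and 0.404 to 0.598% in the plain arm, and ribosomal protein genes 0.926 to 1.01% and 0.981 to 1.04%. On the first principal component of the 8 libraries, with 23.1% of the variance, irradiated libraries lay between -14.6 and -6.05 and plain libraries between -0.452 and 20.0. Plain APTKA I was the plain library nearest to the irradiated ones. Fibroblast markers were high in both arms, with Col1a1 at 8304 ± 861 CPM (counts scaled to library size) in the irradiated arm and 7108 ± 329 CPM in the plain arm (SD, n = 4 each), and 1 of 13, Pdgfrb, was called. No marker of the other 10 cell types was called by edgeR in the fit of 20 libraries or by DESeq2. At an unadjusted p of 0.05, 4 passed. A fit of the 8 libraries alone called Tubb3, of enteric glia and neurons, higher (0.28). All 10 pericyte and smooth muscle markers passed the filter, with summed levels of 1633 to 2047 CPM (irradiated) and 1602 to 1761 CPM (plain). For enteric glia and neurons 4 of 9 did, with 116 to 131 and 95.5 to 111 CPM. For macrophages and monocytes 4 of 10 did, with 8.92 to 10.05 and 9.10 to 10.12 CPM. Epithelial cells were near absent by their markers. Epcam had 3 counts over the 4 irradiated libraries and 4 over the 4 plain ones, and 3 of 12 epithelial markers passed the filter, with a summed level of 1.61 to 2.36 CPM in the irradiated arm and 1.31 to 2.31 CPM in the plain arm. The leukocyte gene Ptprc had 0 counts in the irradiated arm and 4 in the plain arm, and none of 8 lymphocyte markers passed the filter.

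The irradiated arm differed from the plain arm in few genes, and by little. With edgeR's quasi-likelihood test and a false discovery rate of 5%, a rule for which "called" is used throughout, 67 genes were higher and 41 lower, in all 108 of 14820 tested (0.729%, with 0.452% higher and 0.277% lower). Upper quartile scaling in place of TMM gave 47 higher and 47 lower. Of the 108, 24 differed by at least 1.5-fold and 9 by at least 2-fold, and no gene in the last set averaged more than 2.2 CPM in either arm. The smallest log2 fold change called was 0.205 in size, and the median over all genes tested was 0.0044. A negative log2 fold change was found in 48.4% of all genes tested, the share to set beside counts by sign in the lists. In 103 of the 108 the arms did not overlap, 62 higher and 41 lower, beside 10.5% of all genes tested (6.21% higher and 4.31% lower). The calls rest on those libraries too, so nothing more is read from it. Among the named genes that were called, the largest rises were those of Aldh1a3, Nqo1 and Gsta4, and the largest falls those of Spry2, a feedback inhibitor of growth factor signalling, and the BMP ligand gene Gdf6.

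The count of calls differed between fits. A fit of the 8 libraries alone called 519 genes, 293 higher (1.98%) and 226 lower (1.52%), and DESeq2 called 307, 196 higher (1.6% of 12234 with an adjusted p) and 111 lower (0.907%). The fit of 8 libraries included 105 of the 108, all in the same direction. Of the 108, 26 were called in each of 8 fits that left out 1 of the libraries compared, 20 higher and 6 lower, and all 108 kept their sign in those fits. Leaving out 1 library gave 33 calls without plain APTKA III or IV and 288 without irradiated APTK II, with the other such counts between them. The irradiated APTK group had the largest median SD within a group, 0.177 on the log2 CPM scale, against 0.0949 in irradiated APTKA, 0.110 in plain APTKA, 0.0979 in plain APTK and 0.120 in untreated, and a fit without that group, added after the data were seen, called 408 genes.

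**Figure D1:**
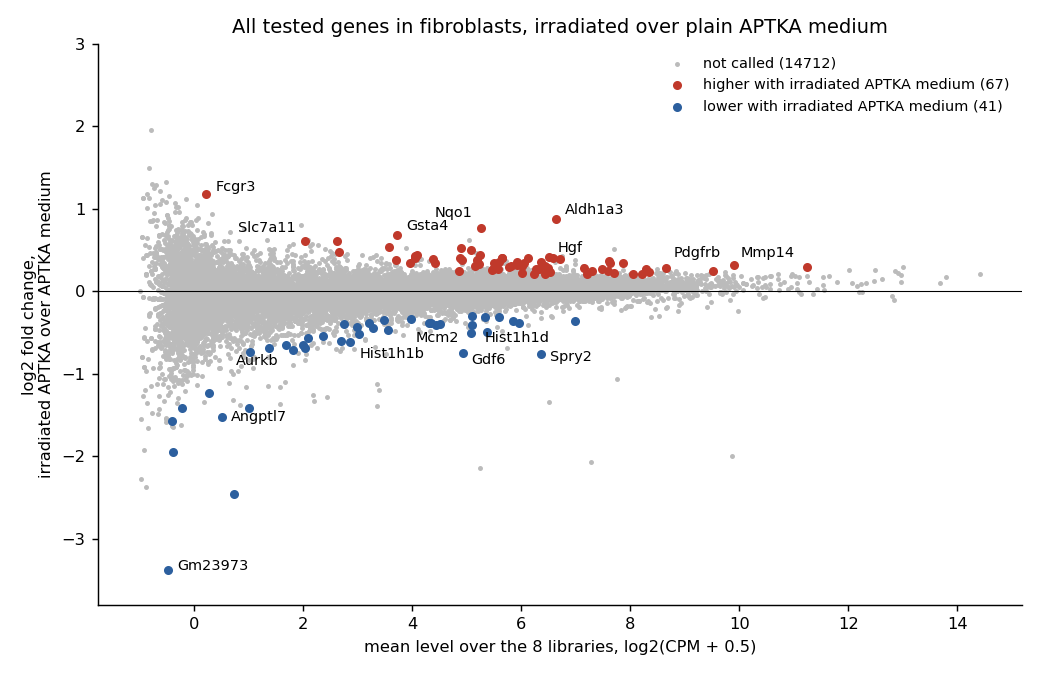
Log2 fold change of irradiated over plain APTKA medium (vertical axis) against the mean level over the 8 libraries as log2(CPM + 0.5) (horizontal axis) for 14820 genes, with 67 called higher in red and 41 called lower in blue. The called genes above a level of 4 lie within a log2 change of 1 on either side of 0, and the called changes beyond it belong to genes of low level such as Angptl7, Fcgr3 and Gm23973.

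Nqo1, which encodes NAD(P)H quinone dehydrogenase, a textbook NRF2 target (ENSMUSG00000003849, mm10 chromosome 8, 107388225 to 107403206), gave one of the 2 smallest adjusted p-values. It had 48.0, 43.4, 48.0 and 52.0 CPM in irradiated libraries I to IV, against 30.7, 26.3, 29.0 and 26.6 CPM in plain libraries I to IV. Each irradiated library was above each plain one, and the log2 fold change was 0.77 ± 0.0894 (SE; edgeR adjusted p = 6.26e-05). Untreated fibroblasts averaged 67.0 ± 7.19 CPM, so the irradiated arm lay between the plain arm and untreated cells.

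Gsta4, a glutathione transferase that detoxifies lipid aldehydes (ENSMUSG00000032348, chromosome 9, 78182774 to 78209349), had 15.3, 14.2, 15.4 and 17.8 CPM in the irradiated arm and 10.4, 8.97, 9.49 and 10.3 CPM in the plain arm. The arms did not overlap, and it rose by 0.68 ± 0.101 (edgeR adjusted p = 6.29e-04). Slc7a11, the cystine importer that feeds glutathione synthesis (ENSMUSG00000027737, chromosome 3, 49892526 to 50443614), had 4.79, 4.61, 3.96 and 3.98 CPM in the irradiated arm and 2.83, 2.91, 2.65 and 2.98 CPM in the plain arm. It rose by 0.61 ± 0.116 (edgeR adjusted p = 0.00825), while both arms stayed far below the untreated mean of 34.1 CPM.

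Gclm, the modifier subunit of the enzyme that starts glutathione synthesis (ENSMUSG00000028124, chromosome 3, 122245557 to 122270732), had 18.7, 18.8, 16.9 and 18.7 CPM in the irradiated arm and 13.2, 12.7, 15.01 and 14.2 CPM in the plain arm, a rise of 0.41 ± 0.0759. G6pdx, glucose-6-phosphate dehydrogenase, which makes NADPH (ENSMUSG00000031400, chromosome X, 74409483 to 74429194), averaged 48.4 ± 3.82 CPM in the irradiated arm and 40.3 ± 1.94 CPM in the plain arm, a rise of 0.27 ± 0.0606 (edgeR adjusted p = 0.0354) whose call held in 2 of the 8 fits that left out 1 compared library. Both overlap other annotated genes, Gclm with Gm6061 and Gm17494 and G6pdx with Ikbkg on the opposite strand, which was itself called higher (0.23), and the strand setting of the counting is not given in the sources used here.

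Over the list of 23 antioxidant and NADPH genes tested, these 5 were called higher and 0 lower by edgeR. At an unadjusted p of 0.05 the list had 15 higher and 0 lower (6.78% higher and 5.78% lower over all genes), and with DESeq2 8 and 0. Of the 23, 19 had a positive log2 fold change, and the list's median was 0.18 beside 0.0044 over all genes tested. Mean list levels were 5.75 to 5.83 log2 CPM in irradiated libraries and 5.50 to 5.62 in plain libraries, with no overlap, and 6.23 to 6.34 in untreated libraries. Members that were not called include the thioredoxin reductase gene Txnrd1, at 272.7 and 235.2 CPM in the irradiated and the plain arm, the sulfiredoxin gene Srxn1, at 91.7 and 75.2 CPM, and the catalytic glutathione synthesis subunit Gclc, at 33.2 and 26.4 CPM, none of which overlapped between arms. The heme oxygenase gene Hmox1 (0.39) did not pass either, and Nfe2l2 itself, at 125.5 and 121.4 CPM, and Keap1, at 43.4 and 43.5 CPM in the irradiated and the plain arm, were not called (edgeR adjusted p = 0.808 and 0.995). The fit of 8 libraries called 11 of the 23 higher, among them Gclc, Txnrd1 and Srxn1, and leaving out 1 library gave 4 to 6 calls, except 8 without irradiated APTK II and 9 without irradiated APTK IV. Outside the list, Blvrb, which reduces biliverdin and flavins, was called higher (0.30). That call held in 2 of the 8 fits that left out 1 compared library.

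**Figure D2:**
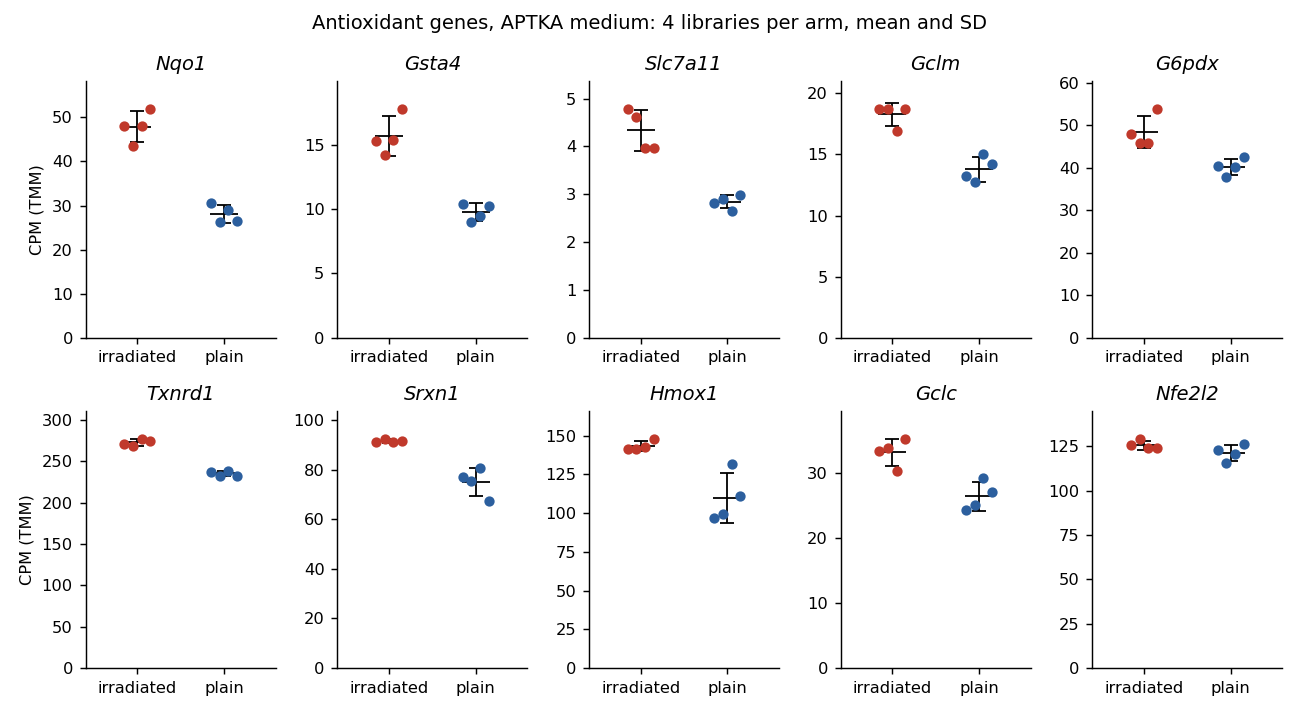
TMM-scaled CPM of 10 antioxidant genes in the 4 irradiated (red) and 4 plain (blue) APTKA libraries, each point a library, with mean and SD in black and each axis starting at 0. The upper row holds the 5 called genes, where the arms do not overlap, and the lower row holds genes that were not called, of which Txnrd1, Srxn1, Hmox1 and Gclc do not overlap and Nfe2l2 does.

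Promoter windows from 250 bases before to 50 after the start of transcription, from RefSeq annotation on GRCm38.p6, matched 47 of the 67 genes called higher and 19 of the 23 antioxidant genes. The core letters of the antioxidant response element, TGACNNNGC on either strand, stood in 8 of 25 windows of the list (32%), in 13 of 56 windows of genes called higher (23.2%) and in 12.4% of all 32851 windows. The list was drawn up around NRF2 and its called members are also among the genes called higher, so these shares are not separate. All windows also cover genes that were not tested. The windows of Gclm (chr3:122245307-122245606, plus strand) and G6pdx (chrX:74428831-74429130, minus strand) are shown because both genes were called and hold the letters, set in capitals, here on the reverse strand. Neither match holds the AP-1 letters TGANTCA. Whether the other called members of the list, Nqo1, Gsta4 and Slc7a11, have a window or hold the element's letters is not given here.
Gclm: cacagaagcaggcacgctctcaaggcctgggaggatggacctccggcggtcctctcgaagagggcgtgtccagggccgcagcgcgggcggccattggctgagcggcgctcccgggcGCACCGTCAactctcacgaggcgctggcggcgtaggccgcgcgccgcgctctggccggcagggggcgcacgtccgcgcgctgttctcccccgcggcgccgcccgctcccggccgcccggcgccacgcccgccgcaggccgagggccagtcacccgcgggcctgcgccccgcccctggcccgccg
G6pdx: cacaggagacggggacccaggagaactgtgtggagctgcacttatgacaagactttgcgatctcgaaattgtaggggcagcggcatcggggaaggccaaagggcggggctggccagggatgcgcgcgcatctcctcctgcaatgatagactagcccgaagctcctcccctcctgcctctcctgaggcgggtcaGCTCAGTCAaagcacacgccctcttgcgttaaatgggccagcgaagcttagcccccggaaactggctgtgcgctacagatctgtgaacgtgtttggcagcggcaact

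Of 38 replication and S phase genes tested, 4 were called lower in the irradiated arm, Mcm2, Mcm3, Pola1 and Dnmt1. Mcm2, a subunit of the replicative helicase (ENSMUSG00000002870, chromosome 6, 88883474 to 88898780), had 26.1, 30.3, 26.0 and 27.2 CPM in irradiated libraries I to IV, against 37.0, 39.1, 40.6 and 38.3 CPM in plain libraries. All irradiated libraries were below all plain ones, and Mcm2 fell by 0.50 on the log2 scale (SE 0.0715; edgeR adjusted p = 3.81e-04). Untreated cells averaged 20.5 ± 1.47 CPM, below both arms.

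Mcm3, another subunit of that helicase (ENSMUSG00000041859, chromosome 1, 20802968 to 20820312), had 16.4, 16.4, 17.2 and 16.7 CPM in the irradiated arm and 21.4, 21.9, 21.1 and 22.7 CPM in the plain arm, a log2 fold change of -0.38 ± 0.0867. Pola1, the catalytic subunit of the polymerase that primes replication (ENSMUSG00000006678, chromosome X, 93304767 to 93632155), had 9.73, 9.88, 9.58 and 8.60 CPM in the irradiated arm and 12.8, 13.9, 12.8 and 12.8 CPM in the plain arm (-0.47 ± 0.109). Dnmt1, the maintenance DNA methyltransferase, averaged 42.5 ± 4.07 CPM in the irradiated arm and 52.6 ± 2.92 CPM in the plain arm (-0.30 ± 0.0640). All 3 were called, with no overlap between arms. Of the 8 fits that each left out 1 compared library, the Dnmt1 call held in 4, the Mcm3 call in 1 and the Pola1 call in 0, while that of Mcm2 held in all 8.

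Over the 38 genes, these 4 were called lower and 0 higher by edgeR, against 10 lower and 0 higher with DESeq2 and 25 lower and 0 higher at an unadjusted p of 0.05. A total of 36 of the 38 had a negative log2 fold change, with a median of -0.26 beside 0.0044 over all genes. The mean level of the list was 3.17 to 3.24 log2 CPM in the irradiated arm and 3.42 to 3.50 in the plain arm, which did not overlap, and 2.97 to 3.12 in untreated libraries. The licensing factor Cdc6, at 1.71 and 2.58 CPM, the helicase subunit Mcm5, at 9.12 and 12.7 CPM, and the sliding clamp Pcna, at 11.6 and 13.3 CPM in the irradiated and the plain arm, were not called. Without plain APTKA II the list had 1 call, without irradiated APTK II 11, and in the fit of 8 libraries 13. In bulk libraries, fewer cells in S phase and less of these RNAs per cell cannot be told apart.

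Mitotic genes had low levels in both arms. Of 35 tested, 3 were called lower and 0 higher by edgeR, 6 and 0 with DESeq2, and 21 and 0 at an unadjusted p of 0.05. A negative log2 fold change was found for 34 of them, with a median of -0.26. Ccna2, which encodes cyclin A2 (ENSMUSG00000027715, chromosome 3, 36564865 to 36572150), had 7.93, 7.58, 7.41 and 7.42 CPM in the irradiated arm and 9.62, 9.64, 10.6 and 9.92 CPM in the plain arm (-0.39 ± 0.0891). Aurkb, the kinase of the chromosomal passenger complex, averaged 2.29 ± 0.312 CPM in the irradiated arm and 3.75 ± 0.644 CPM in the plain arm (-0.71 ± 0.167), and the chromokinesin Kif4 5.38 ± 0.210 and 7.10 ± 0.410 CPM (-0.40 ± 0.0912). The proliferation markers Mki67, at 9.52 and 12.8 CPM, and Top2a, at 20.8 and 26.4 CPM in the irradiated and the plain arm, did not pass (edgeR adjusted p = 0.19 and 0.108). With the replicate number as a block in the fit of 20 libraries, 0 of the list were called. The calls of Ccna2, Aurkb and Kif4 were thus all lost. In the fit of 8 libraries, 8 of the list were called lower, among them Ccna2, Aurkb, Kif4 and Top2a, and 9 with the block. No mitotic gene of the list was called without plain APTKA II, and 7 were without irradiated APTK II. Ccna2 overlaps Exosc9 and Kif4 overlaps Pdzd11 on the opposite strand. Outside the lists the cell cycle genes Cdca2, Fbxo5, Pbk, Pif1 and Aunip and the deoxycytidylate deaminase gene Dctd were called lower. All but Cdca2 and Dctd were chosen for mention after their values were seen. Of the 8 fits that left out 1 compared library, the Cdca2, Pbk and Pif1 calls held in 1 each. Those of Fbxo5 and Dctd held in 2 and that of Aunip in 3.

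Histone genes, whose messenger RNA is made mainly in S phase, were examined as a list added after the data were seen. Of 47 tested, 4 were called lower and 0 higher by edgeR, beside 0.277% lower and 0.452% higher over all genes tested. For 37 the log2 fold change was negative (48.4% of all genes tested), and the list's median was -0.23. Hist1h1d, a linker histone (ENSMUSG00000052565, chromosome 13, 23553262 to 23560686), had 28.0, 29.4, 28.0 and 29.6 CPM in the irradiated arm and 38.9, 35.4, 41.3 and 37.5 CPM in the plain arm, and fell by 0.41 on the log2 scale (SE 0.0564; edgeR adjusted p = 3.81e-04). The linker histones Hist1h1b, at 5.35 ± 0.450 and 8.16 ± 0.600 CPM, and Hist1h1a, at 4.73 ± 0.819 and 7.23 ± 1.09 CPM in the irradiated and the plain arm, fell by 0.61 and 0.60, and the core histone gene Hist1h4j fell by 0.65, a call that held in 0 of the 8 fits that left out 1 compared library. Hist1h1c, the most abundant of them, was at 421 and 379 CPM and was not called (0.15, edgeR adjusted p = 0.54). Histone genes have near-identical copies, so their counts are uncertain, and their messages mostly lack the poly(A) tail on which these libraries were selected.

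**Figure D3:**
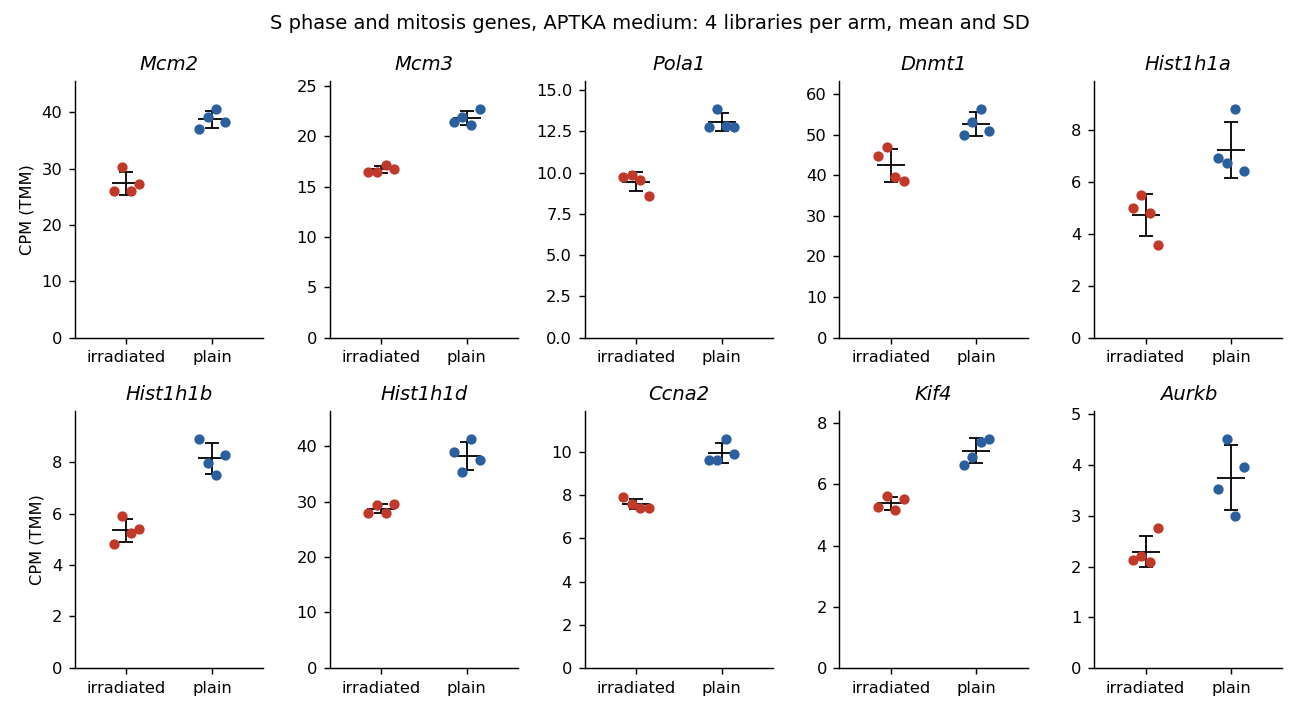
TMM-scaled CPM of 10 called S phase and mitosis genes in the 4 irradiated (red) and 4 plain (blue) APTKA libraries, each point a library, with mean and SD in black and each axis starting at 0. In each panel the irradiated libraries lie below the plain ones, with Aurkb, where irradiated IV reached 2.76 CPM and plain III had 3.00 CPM, showing one of the narrowest gaps.

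Promoter windows matched 31 of the 38 replication genes and 24 of the 41 genes called lower. The E2F letters TTTGGCGC or TTTCCCGC, on either strand, stood in 12 of 38 windows of the replication list (31.6%), in 3 of 29 windows of genes called lower (10.3%) and in 1.56% of all windows. The replication list and the genes called lower share members, so these shares are not separate, and all windows also cover genes that were not tested. Of the called replication genes, Mcm3 (chr1:20820263-20820562, minus strand) and Pola1 (chrX:93632106-93632405, minus strand) hold them. In these windows capitals mark the E2F letters, and the Mcm3 window holds both, 19 and 38 bases from the start of the transcript.
Mcm3: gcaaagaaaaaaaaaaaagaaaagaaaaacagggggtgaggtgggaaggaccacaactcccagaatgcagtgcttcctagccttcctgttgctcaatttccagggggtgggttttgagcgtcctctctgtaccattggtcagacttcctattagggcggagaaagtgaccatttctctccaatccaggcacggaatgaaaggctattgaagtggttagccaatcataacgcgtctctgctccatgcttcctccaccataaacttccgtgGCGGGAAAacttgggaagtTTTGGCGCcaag
Pola1: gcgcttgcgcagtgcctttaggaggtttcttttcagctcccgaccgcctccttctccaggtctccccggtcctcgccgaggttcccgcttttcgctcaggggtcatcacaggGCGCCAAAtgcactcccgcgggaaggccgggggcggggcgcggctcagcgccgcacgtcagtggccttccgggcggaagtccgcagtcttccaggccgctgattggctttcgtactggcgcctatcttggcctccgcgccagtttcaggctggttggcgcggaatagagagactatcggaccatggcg

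Both Sprouty genes that passed the test, feedback inhibitors of the MAPK pathway, were lower. Spry2, which encodes Sprouty 2, an inhibitor induced by receptor tyrosine kinase signalling (ENSMUSG00000022114, chromosome 14, 105891947 to 105896819), had 51.9, 70.6, 59.7 and 61.4 CPM in irradiated libraries I to IV and 99.2, 103, 109 and 102 CPM in plain libraries. The arms were far apart, and it fell by 0.76 on the log2 scale (SE 0.0865; edgeR adjusted p = 6.26e-05), beside 62.3 ± 3.54 CPM in untreated cells. Its relative Spry1 had 18.1, 16.8, 20.0 and 22.4 CPM in the irradiated arm and 22.4, 27.2, 26.7 and 25.0 CPM in the plain arm (-0.39 ± 0.0821, edgeR adjusted p = 0.0189), with the highest irradiated and lowest plain library nearly equal, and it overlaps Gm42922 on the opposite strand. Of 16 genes of the list tested, these 2 were called lower and 0 higher, and 13 had a negative log2 fold change (median -0.19). The ERK phosphatase gene Dusp6, at 9.56 and 13.2 CPM in the irradiated and the plain arm, and Spry4, at 4.63 and 6.47 CPM, were not called in the fit of 20 libraries and were called in the fit of 8, which called 5 of the list, and leaving out 1 library left 1 call without plain II, III or IV or irradiated I or II, and gave 3 without irradiated APTK II. The list's mean level was 4.12 to 4.17 log2 CPM in the irradiated arm and 4.30 to 4.36 in the plain arm.

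Aldh1a3 had the largest rise of the genes that met the rule for names and encodes an enzyme that makes retinoic acid (ENSMUSG00000015134, chromosome 7, 66390890 to 66427517). It had 132, 109, 138 and 135 CPM in irradiated libraries I to IV and 87.6, 61.6, 67.8 and 62.3 CPM in plain libraries, against an untreated mean of 24.6 ± 2.38 CPM. The arms did not overlap, although irradiated II was low and plain I high within their groups, and Aldh1a3 rose by 0.88 ± 0.109 (edgeR adjusted p = 3.81e-04).

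Among secreted signals, Hgf, the hepatocyte growth factor that acts on epithelium through MET (ENSMUSG00000028864, chromosome 5, 16553495 to 16620152), had 105, 107, 101 and 101 CPM in the irradiated arm and 91.6, 74.6, 72.8 and 71.7 CPM in the plain arm. It rose by 0.41 ± 0.0780 (edgeR adjusted p = 0.0083), a call lost without plain III or plain IV, and it shares exon sequence with Gm43489. Tgfb2, a TGF-beta ligand, averaged 221.7 ± 12.8 CPM in the irradiated arm and 174.6 ± 10.5 CPM in the plain arm (0.34 ± 0.0758), a call lost under upper quartile scaling and without 6 single libraries of the 8. Gdf6, a ligand of the BMP family (ENSMUSG00000051279, chromosome 4, 9844372 to 9862345), had 20.3, 25.1, 21.1 and 22.4 CPM in the irradiated arm and 32.6, 42.7, 37.6 and 36.8 CPM in the plain arm. It fell by 0.75 on the log2 scale (SE 0.103; edgeR adjusted p = 3.81e-04), the only one of 19 tested BMP ligands, antagonists and ID targets to be called. Fgf10, an epithelial growth factor gene that overlaps Gm16263 on the opposite strand, averaged 49.98 ± 4.56 CPM in the irradiated arm and 64.2 ± 3.28 CPM in the plain arm (-0.36 ± 0.0839), a call lost without 7 single libraries of the 8, and Pdgfrb, a PDGF receptor, 443 ± 5.49 and 364 ± 23.8 CPM (0.28 ± 0.0559). Of 29 growth factors, receptors and binding proteins tested, 2 were called higher and 1 lower (medians 0.06 for the list and 0.0044 for all genes).

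A few genes of matrix turnover were higher. Mmp14, a membrane-bound collagenase (ENSMUSG00000000957, chromosome 14, 54431612 to 54445364), had 1054, 1096, 1053 and 1046 CPM in the irradiated arm and 903, 887, 824 and 777 CPM in the plain arm, a rise of 0.33 ± 0.0618 (edgeR adjusted p = 0.00825) that was lost without plain IV. Timp3, an inhibitor of metalloproteinases that overlaps Syn3 on the opposite strand, averaged 67.9 ± 4.14 CPM in the irradiated arm and 52.97 ± 1.05 CPM in the plain arm (0.36 ± 0.0577), beside 384 ± 30.7 CPM in untreated cells. With Adamts12, a matrix protease (0.22; call lost under upper quartile scaling and without 6 single libraries of the 8), these were the 3 called of 25 proteases and inhibitors tested. The collagen-degrading cathepsin K gene Ctsk averaged 67.1 ± 2.95 CPM in the irradiated arm and 53.5 ± 4.23 CPM in the plain arm (0.33 ± 0.0595), and Ctsc, cathepsin C, rose by 0.38. Outside these lists the basement membrane genes Nid1 (0.29), Nid2 (0.27) and Smoc2 (0.35) and the proteoglycan gene Sdc1 (0.29) were called higher. So were the glycosaminoglycan enzymes Csgalnact1 (0.35) and Glce (0.21). These genes are named here after their values were seen. In the 8 fits that left out 1 compared library, the Smoc2 and Csgalnact1 calls held in all 8. Those of Nid1 held in 3, of Nid2 in 2, and of Sdc1 and Glce in 1 each.

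No collagen or crosslinking gene was called. Of 28 tested, edgeR called 0 in either direction and DESeq2 2 higher, while 13 were higher at an unadjusted p of 0.05 and 22 had a positive log2 fold change (median 0.15). The fit of 8 libraries called 5 higher, among them the basement membrane collagens Col4a1, at 8050 and 6797 CPM in the irradiated and the plain arm, and Col4a2, at 3418 and 2998 CPM, which overlap each other on opposite strands. Acta2, smooth muscle actin, was at 3062 ± 358 CPM in the irradiated arm and 2890 ± 198 CPM in the plain arm (0.08, edgeR adjusted p = 0.718). Dpt, which encodes the matrix protein dermatopontin, was called lower (-0.49), the 1 called gene of 19 quiescent and adventitial fibroblast genes. Also among the 12 largest named rises were Hes1, a Notch target (0.44), Ada, adenosine deaminase (0.43), Lrrc4c (0.54), Brinp3 (0.61), Gpr137b (0.52), Dact1 (0.51) and Rbm12 (0.45). Dact1 overlaps 4930474H06Rik, Brinp3 overlaps Gm29514 and Rbm12 overlaps Cpne1. Psd2 (-0.54), Prss35 (-0.52) and Pgm5 (-0.44) were among the 12 largest falls. The calls of Psd2 and Pgm5 were lost with the replicate block in the fit of 20 libraries, and that of Dpt with the block in the fit of 8. Of the 8 fits that left out 1 compared library, the Psd2 and Prss35 calls held in 2 each and the Pgm5 call in 3. Those of Hes1, Rbm12 and Dpt held in 4, 6 and 7. The calls of Ada, Lrrc4c, Brinp3, Gpr137b and Dact1 held in all 8.

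Interferon-stimulated genes had lower mean levels in the irradiated arm, but edgeR called 0 in the fit of 20 libraries. Of 35 tested, 33 had a negative log2 fold change, with a median of -0.66 beside 0.0044 over all genes, and 19 were lower and 0 higher at an unadjusted p of 0.05. DESeq2 called 5 lower. In the fit of 8 libraries, 5 were called lower, Ifit2, Irf7, Ddx58, Ifi35 and Herc6, and 9 with the replicate block. Isg15, a ubiquitin-like antiviral protein, had 0.8285, 2.11, 1.36 and 1.15 CPM in the irradiated arm and 2.69, 2.52, 3.96 and 5.22 CPM in the plain arm (-1.36 ± 0.399, edgeR adjusted p = 0.138). Ifit1, an antiviral RNA-binding protein, had 4.54, 7.86, 8.42 and 3.33 CPM in the irradiated arm and 6.22, 13.0, 9.88 and 24.0 CPM in the plain arm (-1.13 ± 0.454, edgeR adjusted p = 0.305). Isg15 did not overlap between arms and Ifit1 did. The list's mean level was 1.86 to 2.27 log2 CPM in irradiated libraries and 2.24 to 2.95 in plain libraries, a narrow overlap, and 3.48 to 3.77 in untreated ones. The median SD of these genes within a group was 0.371 in the irradiated and 0.459 in the plain arm on the log2 CPM scale, against 0.0949 and 0.110 over all genes.

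Of 14 interferon-inducible GTPases, edgeR called 0, DESeq2 2 lower, and 9 were lower at an unadjusted p of 0.05, with a median of -0.58. Of 14 class I antigen presentation genes, edgeR and DESeq2 called 0 and 2 were lower at an unadjusted p of 0.05 (median -0.09). In the fit of 8 libraries, the GTPase genes Gbp7 and Irgm2 and the class I gene Tap1 were called lower. With the replicate block it called 5 GTPases and 1 class I gene lower. Outside the lists, the transcription factor Irf1, at 35.4 ± 2.83 CPM in the irradiated arm and 43.9 ± 3.49 CPM in the plain arm (-0.31 ± 0.0666), and Ifi27, at 109.9 ± 12.8 and 141.2 ± 8.77 CPM (-0.36 ± 0.0742), were called lower, and are named after their values were seen. The Irf1 call held in 2 and the Ifi27 call in 4 of the 8 fits that left out 1 compared library. Irf1 overlaps Gm17334 on the opposite strand.

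No cytokine or chemokine gene of the inflammatory lists was called. Cxcl1, a neutrophil attractant, had 76.7, 85.8, 88.2 and 80.8 CPM in the irradiated arm and 102, 92.1, 88.9 and 83.0 CPM in the plain arm, with overlap (-0.14 ± 0.0887, edgeR adjusted p = 0.555), beside 3.24 CPM in untreated cells. Ccl2, which attracts monocytes, had 278, 336, 314 and 255 CPM in the irradiated arm and 340, 370, 423 and 334 CPM in the plain arm (-0.31 ± 0.165, edgeR adjusted p = 0.477). Il6 was at 3.41 ± 0.593 CPM in the irradiated arm and 3.16 ± 0.206 CPM in the plain arm, with overlap. Saa3, an acute-phase protein gene, had 42.2, 63.6, 36.1 and 19.5 CPM in the irradiated arm and 22.2, 85.5, 93.2 and 61.0 CPM in the plain arm, a wide overlap (-0.69 ± 0.363, edgeR adjusted p = 0.473). Nfkbia and Tnfaip3, feedback inhibitors of NF-kB, were at -0.21 ± 0.0630 and -0.24 ± 0.0691 (edgeR adjusted p = 0.115 and 0.106).

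Of 19 inflammatory cytokines and mediators tested, edgeR called 0 and DESeq2 1 lower, and 2 were higher and 6 lower at an unadjusted p of 0.05 (median -0.19). The list's mean level was 3.77 to 3.86 log2 CPM in the irradiated arm and 3.89 to 3.97 in the plain arm. The fit of 8 libraries called 4 lower, the adhesion molecules Icam1 and Vcam1, the growth factor Csf1 and the prostaglandin synthase Ptges. Of 20 NF-kB subunits, inhibitors and targets, edgeR called 0 and DESeq2 2 lower, 5 were lower at an unadjusted p of 0.05 and 17 had a negative log2 fold change (median -0.06). The fit of 8 libraries called Nfkbie and Birc3 of this list lower. The fit without the irradiated APTK group called 4 of it lower, among them Nfkbia and Tnfaip3. For 6 neutrophil chemokines and 9 chemokines of monocytes and lymphocytes edgeR and DESeq2 called 0, with 1 higher and 2 lower at an unadjusted p of 0.05 and medians of -0.04 and -0.21. The fit of 8 libraries called Ppbp higher among the neutrophil chemokines and Ccl7, Cxcl10 and Cxcl12 lower among the others.

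No gene of the p53, DNA repair or senescence lists was called by edgeR in the fit of 20 libraries. The fit of 8 libraries called 1 p53 target lower, Plk2, and 3 repair genes, Chek2, Parp1 and Msh6, and 0 senescence genes. Mdm2, the ubiquitin ligase of p53, had 463, 475, 479 and 446 CPM in the irradiated arm and 580, 486, 483 and 513 CPM in the plain arm (-0.15 ± 0.0683, edgeR adjusted p = 0.37). Cdkn1a, the cell cycle inhibitor p21, was at 275.2 ± 14.6 CPM in the irradiated arm and 272.6 ± 11.3 CPM in the plain arm (0.01 ± 0.0681, edgeR adjusted p = 0.971). Of 32 p53 targets edgeR and DESeq2 called 0, with 1 higher and 4 lower at an unadjusted p of 0.05 (median -0.05). Of 29 damage signalling and repair genes, edgeR called 0 and DESeq2 3 lower, 26 had a negative log2 fold change and 9 were lower at an unadjusted p of 0.05 (median -0.12). Of 14 CDK inhibitors and senescence genes, edgeR and DESeq2 called 0 and 1 was lower at an unadjusted p of 0.05 (median -0.06).

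Metabolic and stress lists held few calls. Adm, adrenomedullin, averaged 53.4 ± 4.62 CPM in the irradiated arm and 69.9 ± 6.30 CPM in the plain arm (-0.39 ± 0.0835), a call lost without 6 single libraries of the 8, while 28 of 33 glycolysis and hypoxia genes had a positive log2 fold change (median 0.12) and 0 were called higher by edgeR, 5 by DESeq2 and 10 at an unadjusted p of 0.05. Of 28 integrated stress response genes, Slc7a11 and the amino acid transporter gene Slc38a2, at 341.0 ± 20.1 CPM in the irradiated arm and 282.6 ± 15.3 CPM in the plain arm (0.27 ± 0.0543), were called higher. Of 24 endoplasmic reticulum chaperones edgeR called 0 and DESeq2 3 higher, and 7 were higher at an unadjusted p of 0.05, the largest rise being that of Hspa5, at 675.4 and 587.8 CPM in the irradiated and the plain arm (0.20). For cytosolic ribosomal proteins, nuclear respiratory chain genes and YAP targets, edgeR and DESeq2 called 0, with 1, 1 and 2 genes past an unadjusted p of 0.05, and medians were 0.004, 0.022 and 0.007.

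**Figure D4:**
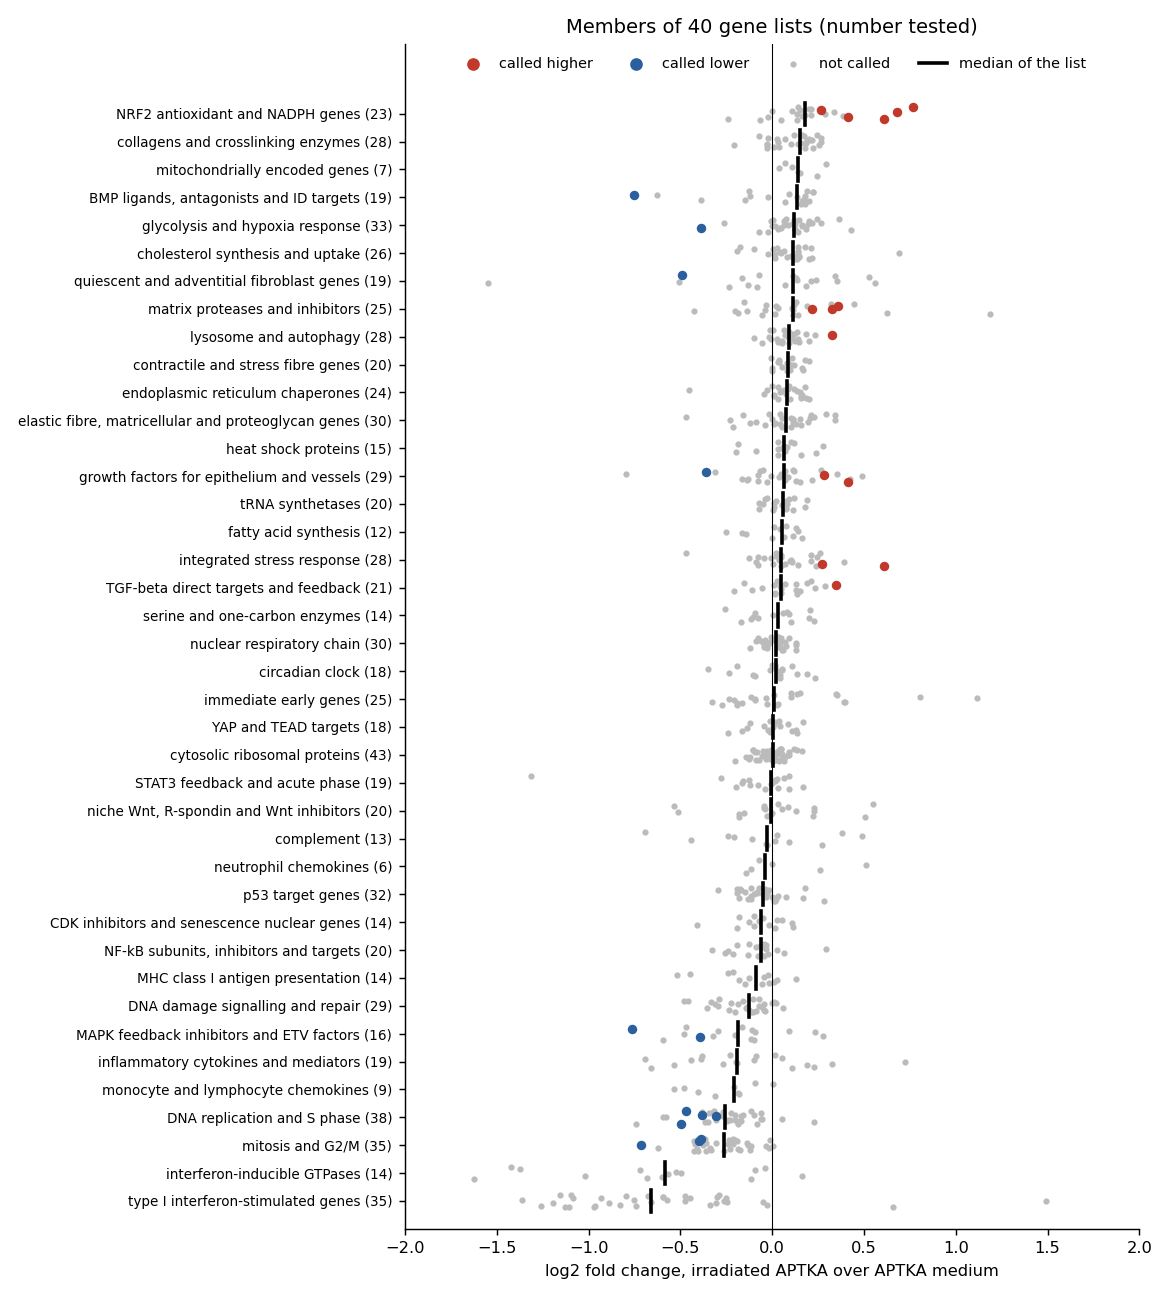
Log2 fold change of irradiated over plain APTKA medium for each tested member of 40 gene lists, with the number tested in brackets, called genes in red (higher) or blue (lower) and the list's median as a black bar. Lists are ordered by median, from 0.18 for the antioxidant list at the top to -0.66 for type I interferon-stimulated genes at the bottom, whose members spread widely and were not called.

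The last comparison set the effect in APTKA medium against that in APTK medium. With edgeR, the difference between the irradiation effects of APTKA and APTK medium was called for 27 genes (0.182%), 18 with a higher value in APTKA medium (0.121%) and 9 with a lower one (0.0607%). Within APTK medium the irradiated arm differed from the plain arm in 205 genes (1.38%), 81 higher (0.547%) and 124 lower (0.837%). Of the 108 genes called in APTKA medium, 80 had the same sign in APTK medium. That share over all genes tested is not given here, so nothing more is read from the count. Among the 108, 9 were also called in APTK medium, all in the same direction, and 10 had the difference itself called. The 2 pairs share no library.

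Nqo1 had a log2 fold change of 0.77 in APTKA medium and 0.77 in APTK medium, and Ctsk 0.33 and 0.33, both called in each medium. Aldh1a3 had 0.88 in APTKA medium and 0.02 in APTK medium (difference 0.86, edgeR adjusted p = 0.0273), Slc7a11 0.61 and -0.13 (difference 0.74, edgeR adjusted p = 0.0248), Slc38a2 0.27 and -0.10, and Pdgfrb 0.28 and -0.15. Spry2 had -0.76 in APTKA medium and 0.03 in APTK medium (difference -0.79, edgeR adjusted p = 0.0093), and Spry1 -0.39 and 0.21. Dusp6 had -0.47 and 0.54, Id1, a BMP target, -0.15 and 0.88, the cytokine gene Lif -0.39 and 0.53, and the gap junction gene Gja1 -0.26 and 0.55, each with the difference called. Thus 3 of 16 MAPK feedback genes had a called difference.

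The difference was not tested for lists as a whole. The replication list had a median of -0.26 in APTKA medium and -0.06 in APTK medium, the mitotic list -0.26 and 0.08, and the interferon-stimulated list -0.66 and -0.83, where 9 of 35 were called lower in APTK medium. Cxcl5, a neutrophil attractant, was at -0.07 in APTKA medium and was called lower in APTK medium (-0.88), and Spp1, osteopontin, at 0.16 and 1.94, without a called difference (edgeR adjusted p = 0.094 and 0.20). The count of called differences was 4 without plain APTKA II and 309 without irradiated APTK IV, and 114 with DESeq2.

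**Figure D5:**
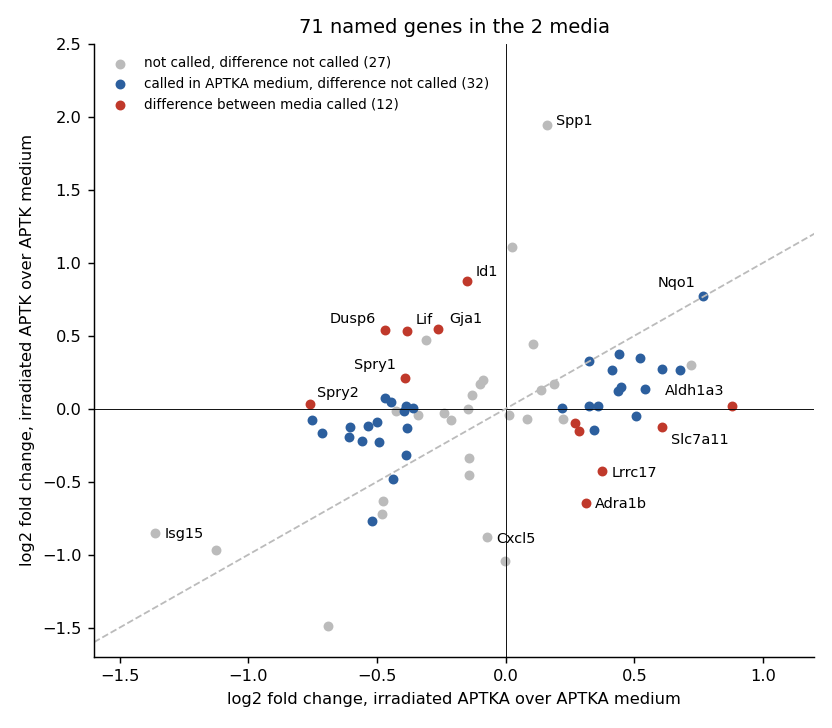
Log2 fold change of the irradiated over the plain arm in APTKA medium (horizontal axis) and in APTK medium (vertical axis) for the 71 named genes, with a called difference in red and other genes called in APTKA medium in blue, and equal changes on the dashed line. Nqo1 lies on the line, Spry2 and Aldh1a3 lie near 0 in APTK medium, and Dusp6, Lif, Gja1 and Id1 lie below 0 in APTKA and above 0 in APTK medium.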

How the data were processed

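RNA was isolated with a Qiagen RNeasy kit and polyA RNA was sequenced, per the labels. The deposited files hold raw read counts per gene for 1 library each, made by the authors with bcl2fastq 2.20.0.422, STAR 2.5.2a and featureCounts 1.5.0-p1 on mm10, per the submitters' processing notes. Annotation release, strand setting and treatment of multi-mapping reads: not given in the sources used here. Of 47729 gene IDs, 47224 were matched to a symbol, and coordinates came from GENCODE annotation of the same assembly.

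The counts were analysed in R 4.3.3 with edgeR 4.0.16 (TMM scaling, low-count filter by group, robust quasi-likelihood test), in 1 fit of 5 group means over the 20 libraries with 15 residual degrees of freedom, and Benjamini-Hochberg adjustment over 14820 genes at 5%. Standard errors are the log2 fold change divided by the root of the F statistic. CPM are scaled by TMM. The fit was tested on simulated data. Promoter windows came from RefSeq. The alternatives were DESeq2 1.42.0, other scalings, other filters, the 8 libraries alone, a replicate block, and each library left out. Replicate counts differed by more than sampling noise in each pair within the 2 arms, so each library counted as 1 sample. Same-numbered libraries of the 2 arms deviated with correlations of -0.0642, 0.0959, 0.00662 and 0.0285 (numbers I to IV). No pairing by number was thus seen over all genes, and none was used in the main fit.

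The comparison, its members and the gene lists were chosen with earlier results of these data known. Named genes are the 12 largest called rises and 12 largest called falls with no overlap between arms, a mean log2 level of at least 2 (offset 0.5) and an established symbol, the 3 largest called changes of each of 40 lists, 28 fixed genes, and the 4 largest and 4 smallest called differences between media. Other genes mentioned fall outside this rule, among them Gclm, G6pdx, Dnmt1, Ctsc, Txnrd1, Srxn1, Gclc, Cdc6, Mcm5, Pcna, Spry4 and Col4a1. These were not chosen by a rule set beforehand, and some may have been picked with their values in view.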

Additional observations from a re-analysis of the deposited data

Results flagged for a closer look

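In groups of 4 libraries, a library that stands far from the other 3 is expected by chance in about 1 group in 20. Over the 71 named genes in each of the 2 arms, 7 such values were found, about the number that chance gives. In the irradiated APTKA arm, Dact1 was 32.1 CPM in library IV against 40.7 to 42.3 CPM in the others. Aurkb was 2.76 CPM in irradiated APTKA IV against 2.09 to 2.2 CPM in the other irradiated libraries. Mmp14 was 1100 CPM in irradiated APTKA II against 1050 CPM in the others, to 3 digits. Fgf10 was 43.2 CPM in irradiated APTKA I against 51.9 to 52.5 CPM in the others. In the plain APTKA arm, Hgf was 91.6 CPM in library I against 71.7 to 74.6 CPM in the others, and Lif was 24.7 CPM in library I against 18.9 to 19.4 CPM. Pola1 was 13.9 CPM in plain APTKA II against 12.8 CPM in the others.

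For 12 named genes the irradiation effect differed between APTKA and APTK medium, tested as the difference itself with edgeR at 5% over all genes. The log2 difference, APTKA effect minus APTK effect, was positive for Adra1b (0.96), Aldh1a3 (0.86), Lrrc17 (0.81), Slc7a11 (0.74), Pdgfrb (0.43) and Slc38a2 (0.37). It was negative for Id1 (-1.03), Dusp6 (-1.01), Lif (-0.92), Gja1 (-0.81), Spry2 (-0.79) and Spry1 (-0.60).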

How the results depend on the processing

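The count of called genes, 108 (67 higher, 41 lower), moved most with the libraries in the fit. It was 519 (293 and 226) with the 8 libraries alone, 750 (429 and 321) with those and the replicate block, and 408 (246 and 162) without the irradiated APTK group, an alternative chosen after seeing the data. It was 307 (196 and 111) with DESeq2 and 316 (220 and 96) with no filter, and 112, 94, 95 and 82 with RLE scaling, upper quartile scaling, a filter at 5 CPM in 4 libraries and the replicate block in the 20-library fit. Leaving out 1 library gave 33 (without plain APTKA III or IV) to 288 (without irradiated APTK II) in all, 23 to 200 higher and 8 to 88 lower. Without plain APTKA II it was 40, without irradiated APTKA I, III and IV 39, 43 and 56, and without irradiated APTK IV 184. The count of called differences between media, 27 (18 and 9), was 114 (75 and 39) with DESeq2 and 209 (158 and 51) with no filter, and 22 with the replicate block. Leaving out 1 library gave 4 to 309, with 2 to 184 higher and 2 to 125 lower. The cause of these shifts was not tested. Over all genes no pairing by number was seen, as 1 of 4 irradiated libraries correlated best with its own number. Such correlations cannot exclude an effect of the number on some genes. No called gene among those named changed sign under the alternatives run. Of the named genes that were not called, Cxcl2, Il33, Cdkn1a and Mmp3 had values on both sides of 0 (-0.08 to 0.18, -0.33 to 0.10, -0.02 to 0.04 and -0.16 to 0.13). List medians were not recomputed under the alternatives. Low-level genes, below about 2 CPM, rest on few reads.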

Other observations

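Among the 41 genes called lower were 4 small non-coding RNA genes of low level, chosen here after their values were seen. Gm26461, annotated as a miscellaneous RNA, had 0.216, 0.464, 0.349 and 0.358 CPM in irradiated APTKA libraries I to IV and 1.95, 2.03, 1.52 and 2.27 CPM in plain APTKA libraries, with an untreated mean of 2.94 CPM. It fell by 2.46 on the log2 scale (edgeR adjusted p = 0.0296). The same gene had 0.605, 0.631, 0.456 and 0.429 CPM in irradiated APTK libraries and 2.34, 2.64, 0.366 and 0.340 CPM in plain APTK libraries, where I and II were high and III and IV low. Gm23973 showed that split as well, with 0.0550, 0, 0.0351 and 0.0781 CPM in irradiated APTK libraries and 0.538, 0.536, 0.0366 and 0 CPM in plain APTK libraries. The snoRNA gene Gm25117 fell by 1.41 and the miscellaneous RNA gene Gm22567 by 1.95. Of the 8 fits that left out 1 compared library, the Gm25117 call held in 6, and those of Gm26461 and Gm23973 in 1 each. The Gm22567 call held in 0. How such short RNAs entered polyA libraries was not tested.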
